A study of Mus musculus with 12 samples.

Results

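The 8 genes described here are genes of DNA packaging in the mouse spermatid and a neighbour. They are the transition proteins Tnp1 and Tnp2, the protamines Prm1 and Prm2, the testis linker histones Hist1h1t, H1fnt and Hils1, and Prm3. Prm3 lies beside the protamine genes, but its coding sequence is not rich in arginine. The genes were picked by name, with no threshold on their values. They are 8 of the 28643 symbols used in a deposited table of FPKM, a read density scaled for transcript length and library size. All 8 were measured and passed the filter on low values in each test below. The table holds 12 poly(A)-selected libraries from spermatids of 8-week-old male mice. The labels say spermatids and the study's methods round spermatids. The cells were flow sorted in cycloheximide, which holds ribosomes on the mRNA. The control mice were heterozygous (Igf2bp3+/-) and the knockouts homozygous (Igf2bp3-/-) for a Cas9 frameshift aimed at the KH1 domain of Igf2bp3, an RNA-binding protein that recognizes m6A-modified mRNA. Controls therefore carried the mutant allele as well. By the study's methods, the knockout males used for these experiments were chosen for impaired fertility. Genotype differences below thus refer to such knockouts and not to unselected ones. In each genotype, 3 libraries were made from total RNA (RNA-seq) and 3 from polysomes, mRNA with 4 or more ribosomes collected from a sucrose gradient (RNC-seq).

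After meiosis, haploid spermatids replace most of their histones, first with transition proteins and then with protamines, arginine-rich proteins that compact the sperm nucleus. Testis linker histones bind the chromatin before and during this change. The mRNAs of the transition proteins and protamines are classic examples of stored messages: they are transcribed in round spermatids, held as translationally inactive particles, and translated days later in elongating spermatids. For this reason the polysome loading of each mRNA is of interest beside its level. Loading was taken as RNC-seq over RNA-seq FPKM. It is relative to the other transcripts and is not the share of an mRNA on polysomes.

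In the GENCODE M21 annotation of GRCm38, the genes Tnp2, Prm3, Prm2 and Prm1 lie side by side on the minus strand of chromosome 16, with coding transcripts within 8.95 kb (chr16:10787936-10796886). Tnp1 is at chr1:73015074-73015909 (minus strand), Hist1h1t at chr13:23695814-23696725 (plus strand), H1fnt at chr15:98255986-98257293 (minus strand) and Hils1 at chr11:94967593-94968456 (plus strand). Tnp1, Tnp2, Prm1 and Prm2 have 2 exons in their coding transcript, and the other 4 genes have 1. The annotated coding part is short in most: 153 bases in Prm1, 165 in Tnp1, 303 in Prm3, 321 in Prm2, 351 in Tnp2, 510 in Hils1, 627 in Hist1h1t and 1194 in H1fnt, without the stop codon. Tnp1 shares 9.15% of its exonic bases with 1700027A15Rik on the opposite strand, a gene at 66.1 to 160 FPKM, so a small part of its value is uncertain. The exons of the other 7 genes overlap no annotated gene, and BLAST found no near-identical copy of any of the 8 transcripts.

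The coding sequences of the shortest members show what sets the protamines apart. Arginine codons (AGA, AGG and those that begin with CG) are in capitals, and both sequences run 5′ to 3′ from the start codon of the GENCODE M21 transcript, without the stop codon.
Prm1: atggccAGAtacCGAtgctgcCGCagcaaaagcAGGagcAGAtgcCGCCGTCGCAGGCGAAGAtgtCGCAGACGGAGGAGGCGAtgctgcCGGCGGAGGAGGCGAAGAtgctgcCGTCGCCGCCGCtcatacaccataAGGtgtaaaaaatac
Tnp1: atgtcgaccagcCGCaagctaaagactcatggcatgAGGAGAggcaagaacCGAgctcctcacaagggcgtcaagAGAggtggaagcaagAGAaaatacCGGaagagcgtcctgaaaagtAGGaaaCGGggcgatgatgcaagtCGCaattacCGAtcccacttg
Of the 51 codons of Prm1, 28 are arginine codons (54.9%), which ranked 1 among 16726 coding genes, and Prm2 ranked 2 with 38 of 107 (35.5%). The median gene has 5.56%. Tnp1 has 11 arginine and 10 lysine codons among 55, H1fnt has 65 arginine codons among 398 (16.3%), and Tnp2 has 16 among 117 (13.7%). Prm3 differs from its neighbours on chromosome 16: arginine codons are 1.98% of its 101, whereas codons for glutamate or aspartate are 29.7%, against a median of 11.6%. Hist1h1t carries 40 lysine codons among 209 (19.1%). The tetramer GGAC, the core letters of many m6A sites, occurs 7 times in the H1fnt transcript, 3 times each in Tnp2 and Prm2, 2 times each in Tnp1, Prm3 and Hils1, and 0 times in Prm1 and Hist1h1t. Per kilobase, the counts above 0 range from 2.31 in Hils1 to 5.42 in Tnp2, around a median of 4.21 over 17017 coding transcripts.

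The promoters were read for 2 motifs because CREM, the activator of many spermatid genes, binds cAMP response elements (CRE), and TATA boxes place the start of transcription in many genes. The element TGACGTCA, allowing 1 mismatch on either strand, was searched in the 250 bases before each RefSeq start (GRCm38.p6), and TATAAA or TATATA on either strand in the last 60 of these. Windows of 30 bases around each match are shown, because neighbours on chromosome 16 differed in the kind of match, with the matches in capitals, 5′ to 3′ on the strand of the gene.
Tnp1, chr1:73015975-73016004: gcaaaggttagTGATGTCAcaagagagctg
Prm1, chr16:10796869-10796898: ctggtcctcttTGACTTCAtaattcctagg
Prm3, chr16:10790956-10790985: tggagcctttgTGAGGTCAgtgccacaccc
Tnp2, chr16:10788673-10788702: aatcggcccagcTATATAactaggggctgt
Prm2, chr16:10792119-10792148: gtggggtttaccTTTATATAtgagccctct
Hist1h1t, chr13:23695756-23695785: cgcgccctgctcTATATAagcgcccccccc
A CRE-like element was found in Tnp1, Prm1 and Prm3, each with 1 mismatch, with its first base at -94, -64 and -60 from the RefSeq start. The GENCODE coding transcript of Prm1 begins at chr16:10796886, inside the window shown, so the annotations differ on this start. Among 32851 promoters, 10.6% hold such a match. A TATA match was found in Tnp2, Prm2 (where 2 matches overlap) and Hist1h1t, against 5.01% of promoters, and neither motif was found in H1fnt or Hils1. These are matches of letters and not shown to be bound sites.

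Read depth is unknown, because the table gives no counts, so no counting error could be computed. The FPKM of Igf2bp3 was 33.4 to 38.6 in Igf2bp3+/- and 31.4 to 32.5 in Igf2bp3-/- RNA-seq libraries, and a frameshift need not lower its transcript, so it does not check the labels. The transcript CT010467.1, the most abundant of the table, took 5.68% to 19.4% of the summed FPKM of a library. All 8 round spermatid markers had a mean FPKM of at least 1 in every group. So did 8 of 8 elongating spermatid and 8 of 8 spermatocyte markers, whose sums were higher. Of the mean spermatocyte sum of 3527 FPKM in Igf2bp3+/- RNA-seq, however, 3206 came from Ldhc alone. The lists therefore do not single out the labelled stage. The sums of some marker lists differed between the genotypes. The summed RNA-seq FPKM of the round spermatid list was 1171 to 1252 in Igf2bp3+/- and 1439.6 to 1623 in Igf2bp3-/- (sums over 8 genes), and that of 7 Leydig cell markers was 14.6 to 21.5 and 46.4 to 52.9. In RNA-seq, 3 of 6 Leydig markers tested were higher in Igf2bp3-/- at an adjusted p under 0.05 (limma). Of the round spermatid markers 0 of 8 passed, although 8 of 8 had a positive log2 difference. Among elongating spermatid and spermatocyte markers, 0 of 8 passed in each list. Sertoli markers reached 3.76 to 4.58 and 7.27 to 8.05 (1 of 5 tested higher), and blood markers 7.15 to 7.68 and 14.5 to 16.2 (2 of 7 higher). Single genes held much of 2 of these sums. Clu was at 3.12 and 6.69 FPKM of mean Sertoli sums of 4.07 and 7.72, while Rhox5 and Aard were lower in Igf2bp3-/-. Insl3 was at 14.9 and 39.3 of mean Leydig sums of 18.7 and 49.3, and 6 of 6 Leydig markers tested had a positive difference. Spermatogonia markers, at 7.41 to 10.4 and 7.59 to 9.66, and peritubular markers, at 1.32 to 1.45 and 0.834 to 1.33, overlapped. Elongating spermatid markers summed to 4068 to 4328 and 3962 to 4112, and spermatocyte markers to 3374 to 3677 and 3881 to 4133. In bulk samples, fewer cells of a type and less RNA per cell cannot be told apart.

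Most of the 8 mRNAs were among the most abundant in the cells. In total RNA of Igf2bp3+/- spermatids, Prm2, Tnp2 and Prm1 ranked 5, 6 and 7 by mean FPKM among 28643 symbols, Tnp1 ranked 17, H1fnt 60, Hils1 94 and Prm3 171, whereas Hist1h1t ranked 12633. The 8 genes together held 2.01% to 2.50% of the summed FPKM in Igf2bp3+/- and 2.09% to 2.18% in Igf2bp3-/- RNA-seq libraries. On polysomes they held 2.16% to 2.65% and 2.05% to 3.69%. The plot of FPKM by library shows these levels and the wide spread of the Igf2bp3-/- polysome libraries.

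**Figure D1:**
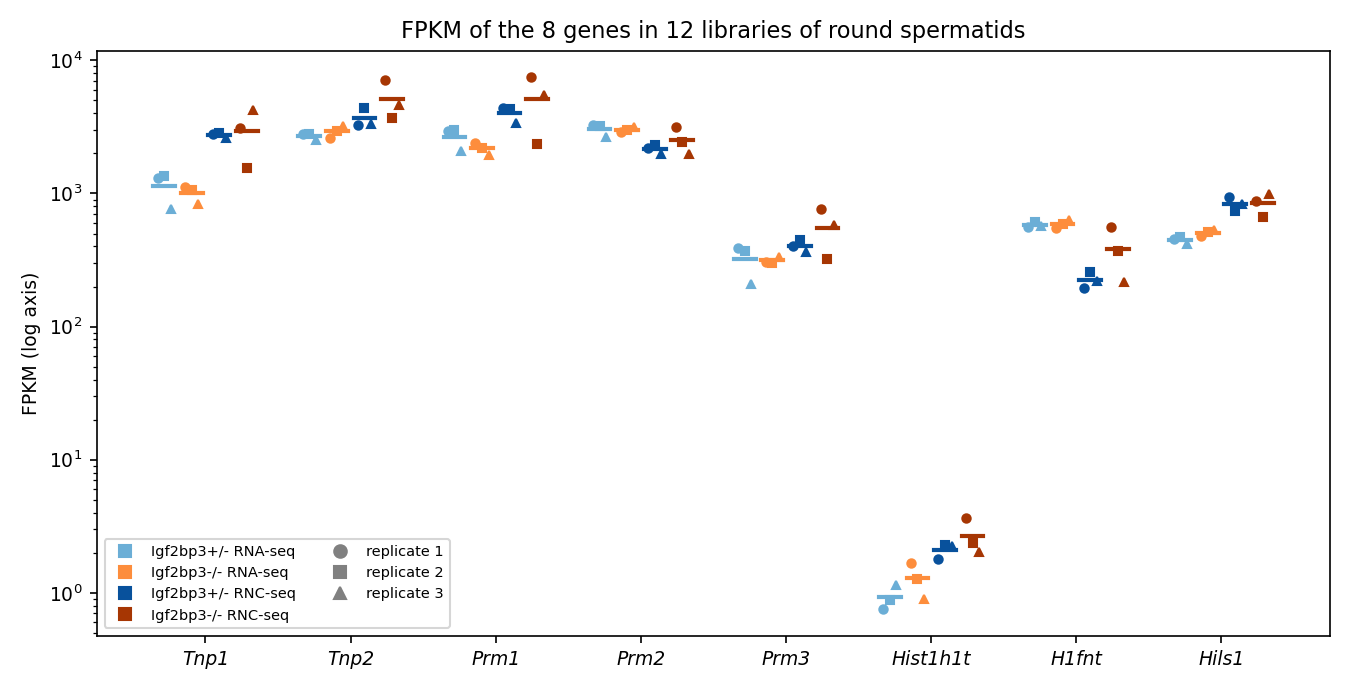
FPKM (log axis) of each gene in the 12 libraries, with replicates 1, 2 and 3 as circle, square and triangle and the group mean as a bar, coloured by genotype and assay. Hist1h1t stayed below 4 FPKM in every library, while the other 7 genes lay between 193 and 7458 FPKM.

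Of the transition proteins, which hold the DNA between histones and protamines, Tnp1 was the less abundant in total RNA. Its RNA-seq FPKM was 1317, 1345 and 771 in Igf2bp3+/- replicates 1 to 3 and 1119, 1067 and 831 in Igf2bp3-/-. Replicate 3 was the lowest in each genotype, and the genotypes overlapped. Tnp2 FPKM was 2794, 2817 and 2525 in Igf2bp3+/- and 2630.1, 2963 and 3219 in Igf2bp3-/-. The Tnp1 to Tnp2 ratio within a library was thus 0.305 to 0.477 in Igf2bp3+/- and 0.258 to 0.426 in Igf2bp3-/-.

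Of the protamines, Prm2, which is made as a precursor and trimmed after it binds DNA, had the highest mean in total RNA. Its FPKM was 3252, 3218 and 2657 in Igf2bp3+/- and 2876, 3001 and 3139 in Igf2bp3-/-. Prm1, the protamine of all mammalian sperm, was at 2934, 3009.8 and 2088 in Igf2bp3+/- and at 2410.3, 2183 and 1959 in Igf2bp3-/-. The lowest Igf2bp3+/- library lay below 2 of the 3 Igf2bp3-/- libraries, so the groups overlapped. Prm3, the intervening gene of the cluster, was at 392, 371 and 209 FPKM in Igf2bp3+/- and at 308, 303 and 332 in Igf2bp3-/-. Replicate 3 of Igf2bp3+/- RNA-seq was the lowest of its group for Tnp1, Tnp2, Prm1, Prm2, Prm3 and Hils1, and its share of CT010467.1 was the highest of the RNA-seq libraries, at 13.3%.

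Of the linker histones, H1fnt, a linker histone of the condensing spermatid nucleus, had the highest level. Its RNA-seq FPKM was 557, 607 and 575 in Igf2bp3+/- and 551, 594 and 628 in Igf2bp3-/-. Hils1, another spermatid linker histone, was at 459, 468 and 416 in Igf2bp3+/- and at 479.7, 511 and 529 in Igf2bp3-/-. It was the sole member whose genotypes did not overlap in RNA-seq, by the small margin between 468 and 479.7. Hist1h1t, the linker histone of spermatocytes and early spermatids, was at 0.754, 0.888 and 1.14 FPKM in Igf2bp3+/- and at 1.67, 1.28 and 0.900 in Igf2bp3-/-. The genotypes overlapped, and in these poly(A)-selected libraries the value was over 100 times below that of Prm3, the next member in the order. How fully poly(A) selection captured Hist1h1t mRNA was not tested.

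In Igf2bp3+/- RNA-seq, neighbours in the order Prm2, Tnp2 and Prm1 had overlapping libraries, and Prm1 was above Tnp1 (2.34-fold in mean FPKM), Tnp1 above H1fnt (1.97-fold), H1fnt above Hils1 (1.30-fold) and Hils1 above Prm3 (1.38-fold) without overlap. In Igf2bp3-/- RNA-seq the order of the means did not change, and Tnp2 was above Prm1 without overlap (1.35-fold). On polysomes of Igf2bp3+/- cells the order of mean FPKM was Prm1, Tnp2, Tnp1, Prm2, Hils1, Prm3, H1fnt and Hist1h1t, and the libraries of Prm1 and Tnp2 were the sole neighbours to overlap. In Igf2bp3-/- RNC-seq Tnp2 stood first and the rest kept this order, but among neighbours Prm2 and Hils1, and H1fnt and Hist1h1t, were the sole pairs without overlap.

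The first comparison asks whether loss of Igf2bp3 altered the amount of these mRNAs in total RNA. No member passed the limit of 0.05 on the adjusted p (limma, Benjamini-Hochberg), against 0.256% of all 20352 genes tested (0.197% higher and 0.059% lower in Igf2bp3-/-), and 0 of 8 had an unadjusted p under 0.05, against 3190 of all genes. Libraries did not overlap in 1 of 8 members, against 22.7% of all genes. Prm1 had the largest fall in its mean, from 2677 ± 511 to 2184 ± 226 FPKM (SD, n = 3), or a log2 difference of -0.28 ± 0.15 (SE, limma adjusted p = 0.410). Its 95% interval ran from -0.63 to 0.07. Hils1 went from 447 ± 27.6 to 507 ± 24.9 FPKM (SD, n = 3), a log2 difference of 0.18 ± 0.09 (SE), adjusted p 0.349 in limma. Hist1h1t had a log2 difference of 0.41 ± 0.25 (SE) and Tnp1 one of -0.15 ± 0.21 (SE), and the other 4 members lay between -0.01 and 0.11. The 95% interval ran from -0.26 to 0.23 for Prm2, from -0.13 to 0.35 for Tnp2 and from -0.17 to 0.22 for H1fnt, and was wider for Tnp1 (-0.64 to 0.34) and Prm3 (-0.47 to 0.49). Without Igf2bp3+/- replicate 3 the log2 difference was -0.45 for Prm1 (limma, adjusted p = 0.214), -0.42 for Tnp1 (0.279) and -0.28 for Prm3 (0.267), with unadjusted p of 0.0032, 0.013 and 0.010. With each library left out in turn, Prm1 ranged from -0.45 to -0.19, Tnp1 from -0.42 to -0.015 and Hist1h1t from 0.21 to 0.62. Rescaled without CT010467.1, Prm1 was at -0.40 (limma, adjusted p = 0.234, unadjusted 0.019). The median over the 8 members was 0.02, beside 0.05 over all genes tested.

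The next question is which of these mRNAs were higher or lower on polysomes, relative to other transcripts, in the control. In Igf2bp3+/- spermatids 3 members were higher in RNC-seq than in RNA-seq (background 18.6% of 18414 genes), 2 were lower (background 25.2%), and 3 did not pass the limit. In all, 5 of 8 members were called beside 43.8% of genes. Libraries did not overlap in 7 of 8 members, against 55.6% of all genes.

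Tnp1 was higher on polysomes. Its RNC-seq FPKM was 2797, 2846 and 2598 in Igf2bp3+/-, above each of the RNA-seq values. The log2 loading was 1.31 ± 0.30 (SE, limma adjusted p = 0.00341). Tnp2, at 3268, 4375 and 3347 FPKM on polysomes, was also above its RNA-seq libraries, but its log2 loading of 0.42 ± 0.21 (SE) missed the limit (limma, adjusted p = 0.123). It passed when centred (log2 0.59, 0.0340) and without Igf2bp3-/- RNC-seq replicate 1 (0.0387).

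The protamines went different ways. Prm1 was at 4403, 4341 and 3360.3 FPKM in Igf2bp3+/- RNC-seq, above each RNA-seq library, with a log2 loading of 0.60 ± 0.32 (SE, limma adjusted p = 0.143), and its adjusted p was 0.0174 without Igf2bp3-/- RNC-seq replicate 2. Quantile normalization took that loading to 0.054. Prm2 was at 2179, 2331 and 1966 FPKM, below each RNA-seq library. Its log2 loading was -0.49 ± 0.17 (SE, limma adjusted p = 0.0324). Leaving out any of 4 single libraries (Igf2bp3+/- RNA-seq replicate 1 or 2, or RNC-seq replicate 1 or 3) raised that adjusted p to between 0.0714 and 0.104, and so did centring each library on its median (log2 -0.32, adjusted p = 0.107), dropping the filter on low FPKM (0.0890) and the replicate block (0.0707). Quantile normalization gave -1.14, and the sign was negative in each setting. Prm3 was at 405, 444 and 362 FPKM, which overlapped its RNA-seq libraries, with a log2 loading of 0.37 ± 0.28 (SE).

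The linker histones split more widely. H1fnt was at 193, 256 and 218 FPKM in Igf2bp3+/- RNC-seq, below each RNA-seq library. Its log2 loading of -1.39 ± 0.25 (SE) was the lowest of the members (limma, adjusted p = 0.000639). Hils1 went the other way, to 935, 738 and 828 FPKM, with a log2 loading of 0.89 ± 0.16 (SE, limma adjusted p = 0.000514). Hist1h1t was at 1.81, 2.28 and 2.25 FPKM, with a log2 loading of 1.12 ± 0.27 (SE, limma adjusted p = 0.00437). That loading rests on RNA-seq values of 0.754 to 1.14 FPKM, and capture of this mRNA by poly(A) selection was not tested.

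In Igf2bp3-/- spermatids 5 members were higher on polysomes than in total RNA (background 12.5%), 1 was lower (background 14.0%), and 2 did not pass the limit, with 26.5% of all genes called. Libraries did not overlap in 4 of 8 members, against 40.7% of all genes. The count of called members was 3 rather than 6 without Igf2bp3-/- RNA-seq replicate 2 or 3 or without RNC-seq replicate 1, and also with no filter on low FPKM. Tnp1, at 3084, 1564 and 4261 FPKM on polysomes, had a log2 loading of 1.46 ± 0.30 (SE, limma adjusted p = 0.00371), and Hils1, at 882, 667 and 987 FPKM, one of 0.72 ± 0.16 (SE, limma adjusted p = 0.00462). These 2 stayed past the limit under each alternative tried. Hist1h1t, at 3.65, 2.37 and 2.04 FPKM, had a log2 loading of 1.01 ± 0.27 (SE, limma adjusted p = 0.0145), and its adjusted p rose to 0.0669 without Igf2bp3-/- RNA-seq replicate 3 and to 0.0623 without RNC-seq replicate 1.

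The remaining members of the Igf2bp3-/- group varied with the library. Prm1 was at 7458, 2366 and 5534 FPKM in RNC-seq replicates 1 to 3, so that replicate 2 lay within its RNA-seq range. The log2 loading was 1.08 ± 0.32 (SE, limma adjusted p = 0.0230), and lost the call without Igf2bp3-/- RNA-seq replicate 2 (0.0623) or 3 (0.0721) or RNC-seq replicate 1 (0.0967) or 3 (0.0890), with quantile normalization (log2 0.59, 0.188) and with no filter (0.0509). Tnp2 was at 7096, 3678 and 4603 FPKM, above its RNA-seq libraries, with a log2 loading of 0.75 ± 0.21 (SE, limma adjusted p = 0.0189), and lost the call without Igf2bp3-/- RNA-seq replicate 1 (0.0753) or 2 (0.0549) or RNC-seq replicate 1 (0.0598), with quantile normalization (log2 0.31, 0.250) and with no filter (0.0558). Prm2, at 3178, 2422 and 1989 FPKM, overlapped its RNA-seq libraries and had a log2 loading of -0.27 ± 0.17 (SE). Prm3, at 763, 319 and 577 FPKM, had one of 0.73 ± 0.28 (SE). H1fnt, at 563, 368 and 218 FPKM, was lower in the test, at -0.73 ± 0.25 (SE, limma adjusted p = 0.0448). Its highest RNC-seq library lay within its RNA-seq range, and leaving out any of 9 of the 12 libraries ended the call, with an adjusted p of up to 0.170 and a log2 loading of -0.37 without Igf2bp3-/- RNC-seq replicate 3. It was also lost when centred (0.0542) and with no filter (0.0741). The call held without Igf2bp3+/- RNC-seq replicate 1 or 2 or Igf2bp3-/- RNC-seq replicate 1.

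**Figure D2:**
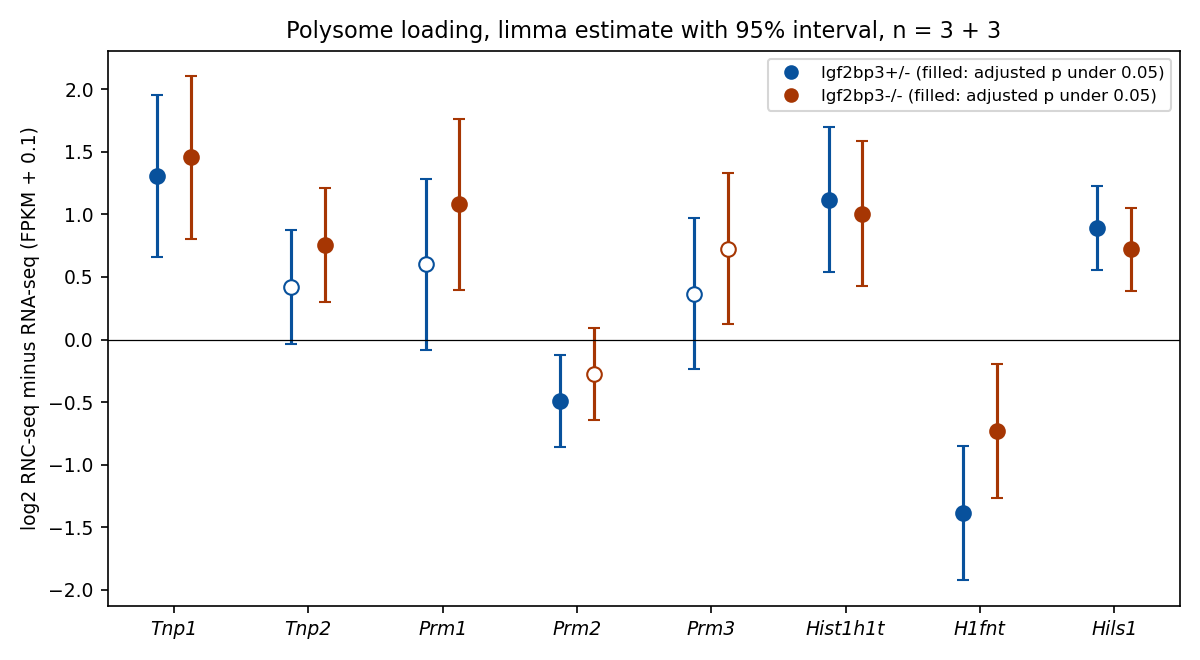
Polysome loading of each gene as log2 RNC-seq minus RNA-seq of FPKM + 0.1 in Igf2bp3+/- (blue) and Igf2bp3-/- (brown), with the limma estimate, its 95% interval and filled points where the adjusted p was under 0.05. The whole intervals of Tnp1, Hist1h1t and Hils1 lie above 0 and those of H1fnt below 0 in both genotypes. The estimates of Tnp2, Prm1 and Prm3 are positive in both, and Prm2 is the sole other member with a negative estimate in both.

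Because FPKM is relative to the other transcripts of a library, loading is relative too. The median over all genes tested was -0.10 in Igf2bp3+/- and -0.04 in Igf2bp3-/-, and the medians over the 8 members were 0.51 and 0.74. Rescaling without CT010467.1 moved the median of all genes to -0.32 and -0.25, and centring each library on its median moved it to 0.07 and 0.00. Against the median of all genes in the main fit, the Igf2bp3+/- loadings were 1.41 for Tnp1, 0.99 for Hils1, 0.70 for Prm1, 0.52 for Tnp2, 0.47 for Prm3, -0.39 for Prm2 and -1.29 for H1fnt. Quantile normalization took the Igf2bp3+/- loading of Tnp2 to -0.03, a change of sign, and that of no other member.

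Loading fell with the length of the coding part across the table, so members were set beside other genes of like length. In Igf2bp3+/-, the median log2 loading of the other genes was 0.77 for a coding part of up to 300 bases (303 genes), 0.47 for up to 600 (1612 genes), 0.04 for up to 1200 (3852 genes), -0.35 for up to 2400 (4444 genes) and -0.94 beyond (2616 genes). Tnp1 lay above the upper quartile of its class (1.26) and Prm1 (0.60) between the quartiles. Tnp2, Prm3 and Hils1 lay within the quartiles of the next class (-0.10 to 0.96), and Prm2 below them. H1fnt lay far below the lower quartile of its class (-0.46), and Hist1h1t above the upper (0.48). In Igf2bp3-/- the positions were the same for Tnp1, Prm2, Hist1h1t and H1fnt outside the quartiles and for Prm1, Tnp2, Prm3 and Hils1 within them. With classes by whole transcript length, Prm2 and H1fnt were again below and Hist1h1t above the quartiles in both genotypes, Prm3 (0.37) was below the lower quartile of its class (0.52) in Igf2bp3+/-, and Tnp1 there lay within the quartiles, whose upper bound was 1.40. This is a description without a test. Among abundant genes, with a mean RNA-seq FPKM of at least 100, the Igf2bp3+/- quartiles were -0.51 and 0.59 (944 genes).

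**Figure D3:**
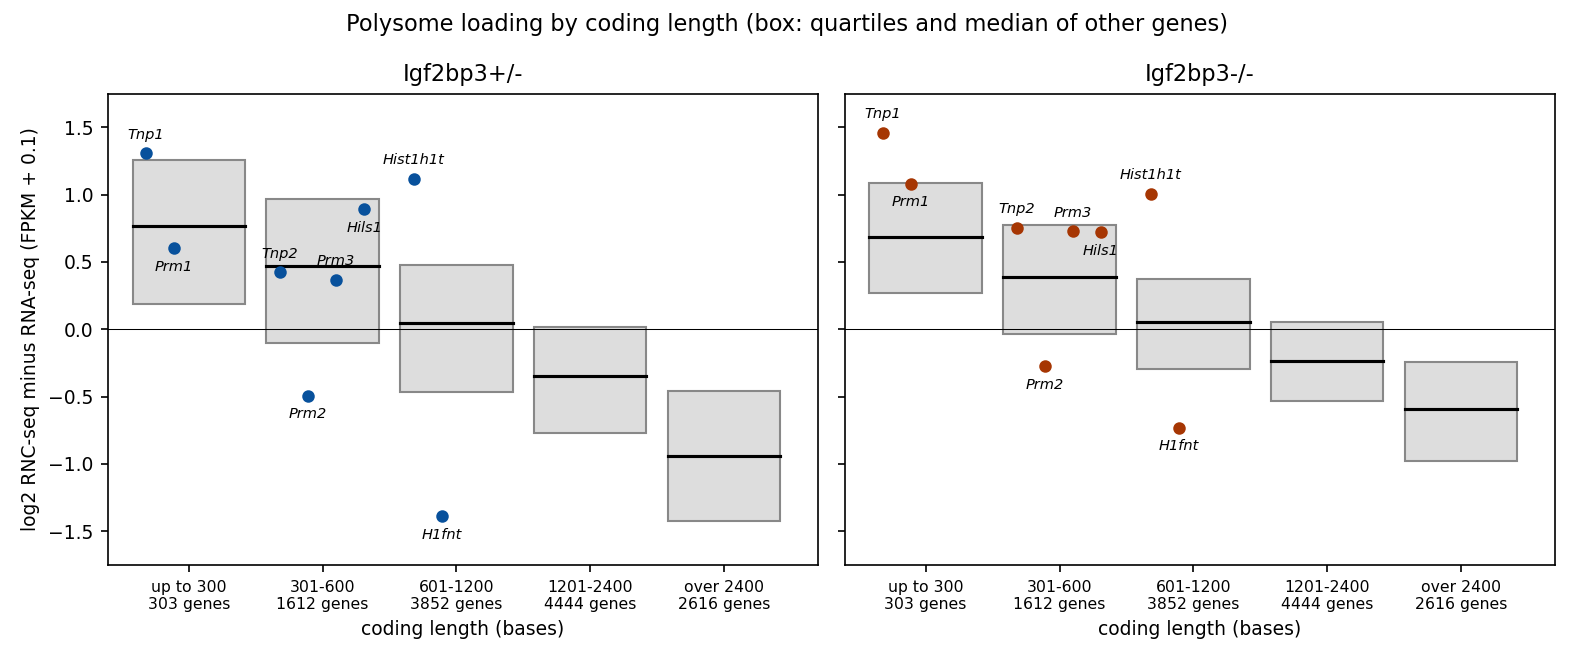
Log2 polysome loading by coding length in Igf2bp3+/- (left) and Igf2bp3-/- (right), where boxes give the quartiles and median of the other coding genes of each length class and points the 8 genes. Prm2 and H1fnt lie below the box of their class in both genotypes, and Tnp1 and Hist1h1t above.

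Ratios within a library need no scaling between libraries and show the same contrasts. The Prm1 to Prm2 ratio of FPKM was 0.902, 0.935 and 0.786 in Igf2bp3+/- RNA-seq replicates 1 to 3 and 2.02, 1.86 and 1.71 in RNC-seq. In Igf2bp3-/- it was 0.838, 0.727 and 0.624 in RNA-seq and 2.35, 0.977 and 2.78 in RNC-seq. The ratio was below 1 in each of 6 RNA-seq libraries and above 1 in 5 of 6 RNC-seq libraries, the exception being Igf2bp3-/- replicate 2. The Hils1 to H1fnt ratio was 0.724 to 0.823 in Igf2bp3+/- and 0.841 to 0.871 in Igf2bp3-/- RNA-seq. On polysomes it was 4.84, 2.88 and 3.79 in Igf2bp3+/- and 1.57, 1.81 and 4.54 in Igf2bp3-/-. Each of the 6 RNC-seq libraries lay above 1, and 2 of the 3 Igf2bp3-/- libraries lay below the Igf2bp3+/- range, while replicate 3 lay within it. The Prm1 to Tnp1 ratio was 2.23 to 2.71 in Igf2bp3+/- RNA-seq and 1.29 to 1.57 in RNC-seq. In Igf2bp3-/- it was 2.05 to 2.36 in RNA-seq and 2.42, 1.51 and 1.30 in RNC-seq, so the assays overlapped.

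**Figure D4:**
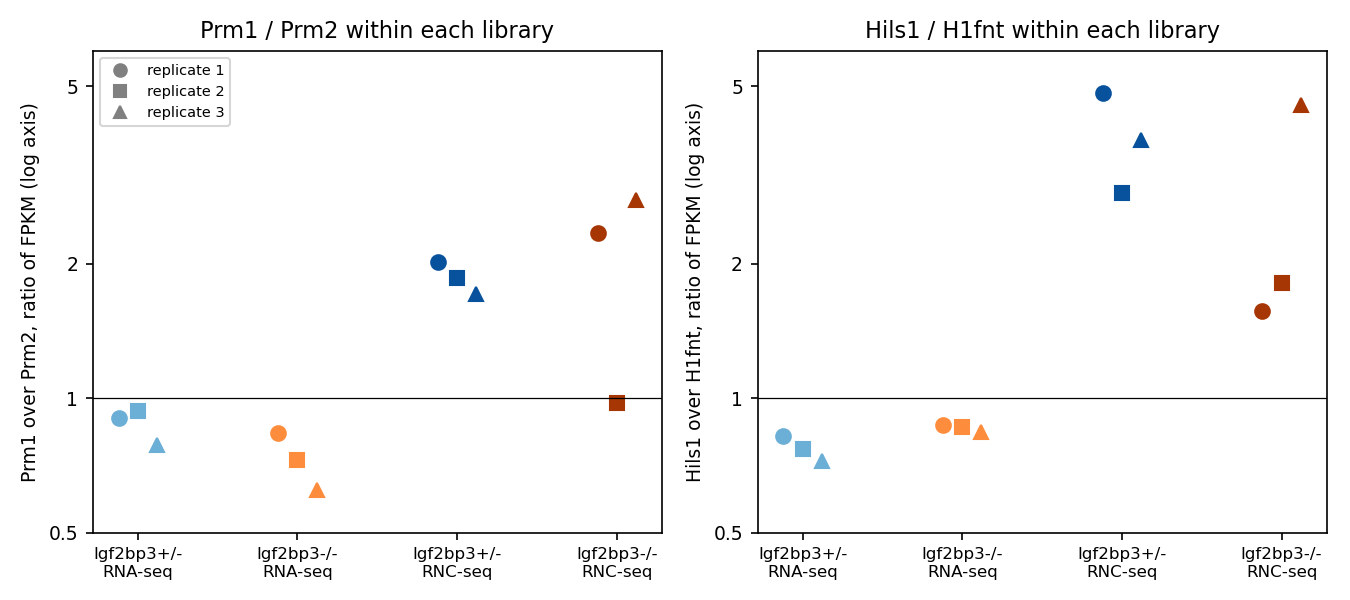
Prm1 over Prm2 (left) and Hils1 over H1fnt (right) as ratios of FPKM (log axis) within each of the 12 libraries, with replicates 1, 2 and 3 as circle, square and triangle and a line at 1. RNA-seq points lie below 1 in both panels, and RNC-seq points above 1 except Igf2bp3-/- replicate 2 for Prm1 over Prm2, at 0.977.

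The last comparisons ask whether loss of Igf2bp3 altered the amount on polysomes or the loading itself. In RNC-seq, 0 of 8 members passed the limit, against 0.115% of 19051 genes (0.0787% higher and 0.0367% lower in Igf2bp3-/-), and in 0 of 8 did the libraries of the genotypes not overlap, against 11.3% of all genes. H1fnt had the largest difference, from 223 ± 31.6 to 383 ± 173 FPKM (SD, n = 3), a log2 difference of 0.69 ± 0.30 (SE). Its unadjusted p was 0.0411 and its adjusted p 0.756 in limma, and it was the sole member with an unadjusted p under 0.05, as were 1235 genes of the table. Replicate 3 of Igf2bp3-/-, at 218 FPKM, lay inside the Igf2bp3+/- range of 193 to 256. Tnp2 had a log2 difference of 0.44 ± 0.26 (SE), Prm3 of 0.37 ± 0.28, Hist1h1t of 0.30 ± 0.28, Prm2 of 0.21 ± 0.22 and Prm1 of 0.20 ± 0.35. Tnp1 and Hils1 were at -0.0031 and 0.0076. The median over the members was 0.25, beside 0.13 over all genes tested. With each library centred on its median, that of all genes was 0.01.

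The spread of the Igf2bp3-/- polysome libraries limited this comparison. The coefficient of variation there was 50.2% for Prm1, 45.5% for Tnp1, 45.3% for H1fnt, 40.3% for Prm3 and 34.5% for Tnp2, against 14.5%, 4.79%, 14.2%, 10.1% and 16.9% in Igf2bp3+/- RNC-seq. Replicate 2 was the lowest of the group for Tnp1, Tnp2, Prm1, Prm3 and Hils1, and replicate 1 the highest for Tnp2, Prm1, Prm2, Prm3, Hist1h1t and H1fnt. The Prm1 difference was 0.68 without Igf2bp3-/- replicate 2 and -0.15 without replicate 1, and that of Tnp1 was 0.40 without replicate 2 and -0.32 without replicate 3. The H1fnt difference was 1.04 without replicate 3 and 0.36 without replicate 1. Without replicate 1 those of Tnp2, Prm3, Hist1h1t and Prm2 fell to 0.18, 0.093, 0.063 and 0.027. CT010467.1 took 8.14%, 11.5% and 14.6% of the summed FPKM in these 3 libraries, and 15.9% to 19.4% in Igf2bp3+/- RNC-seq, and the summed FPKM of Leydig markers was 50.4 to 100 against 6.23 to 13.9. Rescaled without CT010467.1, the log2 genotype difference in RNC-seq was 0.57 for H1fnt, 0.32 for Tnp2, 0.25 for Prm3, 0.19 for Hist1h1t, 0.087 for Prm2, 0.083 for Prm1, -0.11 for Hils1 and -0.12 for Tnp1. The part of the Leydig signal in the member values was not tested.

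For the loading itself, the genotype difference (Igf2bp3-/- minus Igf2bp3+/-, the interaction of genotype and assay) passed the limit in 0 of 8 members, against 0.00543% of 18414 genes, which is 1 gene. The unadjusted p was under 0.05 in 0 of 8 members and in 1312 of all genes. The largest value in this fit was that of H1fnt, at 0.66 ± 0.35 (SE, limma adjusted p = 0.716) and a 95% interval from -0.10 to 1.42. Prm1 followed with 0.48 ± 0.45 (SE), Prm3 with 0.36 ± 0.40, Tnp2 with 0.33 ± 0.30, Prm2 with 0.22 ± 0.24 and Tnp1 with 0.15 ± 0.43. Hist1h1t and Hils1 were at -0.11 ± 0.38 and -0.17 ± 0.22 (SE). With each library left out in turn, the loading difference ranged from 0.33 (without Igf2bp3-/- RNC-seq replicate 1) to 1.01 (without replicate 3) for H1fnt. That of Prm1 ranged from 0.13 (without replicate 1) to 0.96 (without replicate 2), where it was above H1fnt. The 95% intervals are wide: that of Prm1 ran from -0.48 to 1.45, a range that holds both no difference and a difference of 1 on the log2 scale. That of Prm2 ran from -0.30 to 0.74 and that of Hils1 from -0.65 to 0.30. For Prm1 and Tnp2, whose loading passed the limit in Igf2bp3-/- and not in Igf2bp3+/-, the adjusted p of the difference itself was 0.805 and 0.799 in limma.

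**Figure D5:**
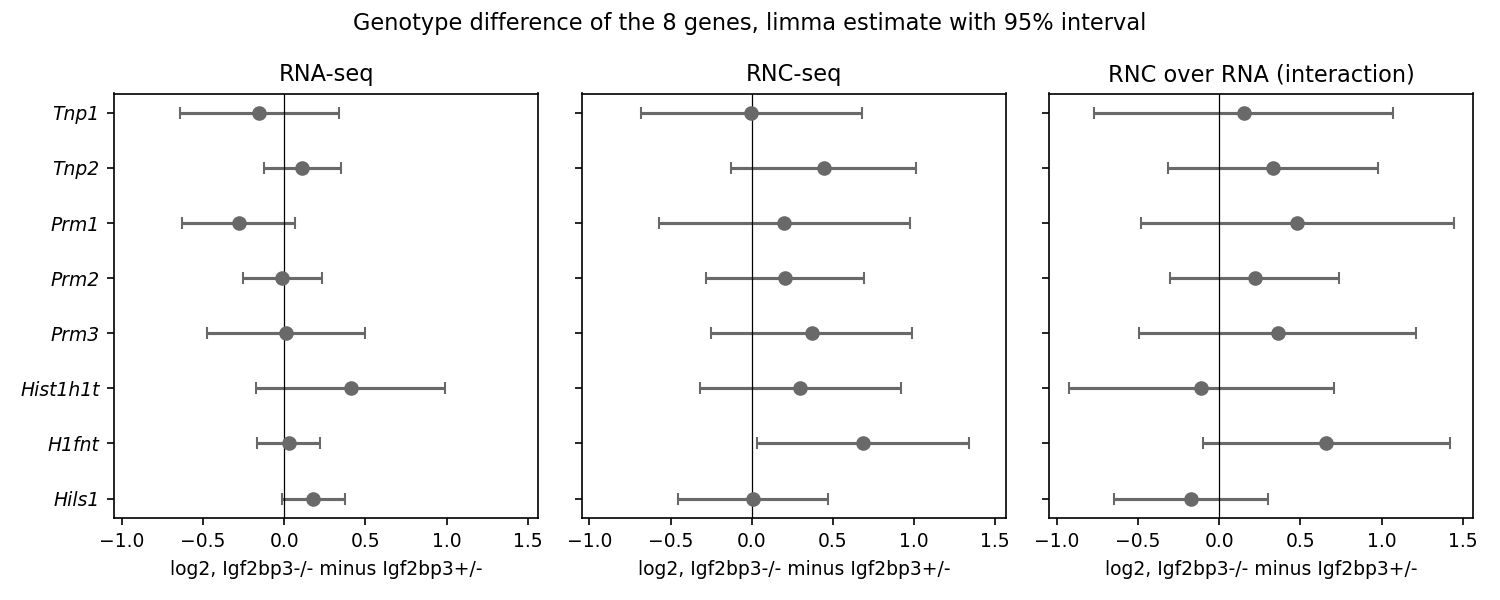
Log2 difference between genotypes (Igf2bp3-/- minus Igf2bp3+/-) of each gene in RNA-seq, in RNC-seq and in RNC over RNA, with limma estimates and 95% intervals. Of the 24 intervals, that of H1fnt in RNC-seq (0.03 to 1.34) is the sole one that leaves out 0, and its adjusted p was 0.756.

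Some members varied together across the libraries. Over the 12 libraries, which share assay and genotype differences, Pearson's r of log2 values was 0.93 between Tnp1 and Hils1, 0.92 between Prm1 and Prm3 and 0.91 between Tnp1 and Prm1, while Prm2 and H1fnt had r of 0.94 with each other and -0.63 and -0.78 with Tnp1. After subtraction of each group's mean, r was 0.91 for Prm1 and Prm3, 0.86 for Prm2 and H1fnt, 0.84 for Tnp1 and Prm1 and 0.43 for Prm1 and Prm2, which lie next to each other on chromosome 16. For Tnp1 it was then 0.03 with Prm2 and -0.31 with H1fnt. Within RNA-seq and within RNC-seq, r was 0.34 and 0.93 for Prm2 and H1fnt and 0.65 and 0.96 for Prm1 and Prm3. It was 0.92 and 0.82 for Tnp1 and Prm1, 0.67 and -0.16 for Tnp1 and Prm2, and -0.28 and -0.27 for Tnp1 and H1fnt. These correlations describe 12 libraries of unknown depth.

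The genes most like each member over the 12 libraries, among about 5402 genes with a mean FPKM of at least 10, included none of the other members. For Tnp1 they were Rpl37rt (r = 0.99), Cox6c and Rps27, for Tnp2 1700003F12Rik (0.96), Tmem270 and Zfp428, and for Prm1 1700042G07Rik (0.98), Gm11213 and Stk39. For Prm2 they were 0610009L18Rik (0.96), Mospd4 and Sod1, and for Prm3 Kcnmb4 (0.96), Tmem239 and Mrps36. H1fnt was closest to Stk11 (0.99), Cdc37 and Sod1, Hils1 to Gm12338 (1.00 after rounding), Cklf and 4930547H16Rik, and Hist1h1t to Rpl8 (0.94), Actl7b and Pafah1b3. Sod1 was on the lists of both Prm2 and H1fnt.

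Other genes of the pathway were taken from lists. None of the 12 histone replacement factors, 5 transcription factors of the Prm and Tnp genes, 12 regulators of stored spermatid mRNAs or 10 tested core histone variants of 12 passed the limit between genotypes in RNA-seq, RNC-seq or loading. In RNA-seq the values ran from -0.19 for the remodeller Chd5 to 0.23 for the ubiquitin ligase Rnf8 among replacement factors, and from 0.07 for Gtf2a1l to 0.40 for Taf7l among transcription factors. They ran from -0.18 for Eif4g3 to 0.33 for Ddx25 among mRNA regulators and from -0.33 for Hist1h2aa to 0.63 for H3f3b among core histones. In RNC-seq the extremes of the 4 lists were Epc1 (-0.24) and Chd5 (0.52), Tbpl1 (0.01) and Taf7l (0.40), Dhx36 (-0.24) and Ybx2 (0.46), and H2afz (-0.10) and Hist1h2ba (0.98). For the loading difference they were Hspa2 (-0.43) and Chd5 (0.71), Crem (-0.17) and Gtf2a1l (0.25), Fxr1 (-0.26) and Eif4g3 (0.49), and H2afz (-0.47) and Hist1h2aa (0.79).

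Within a genotype, loading was called lower in 25.2% and higher in 18.6% of all genes in Igf2bp3+/-, and in 14.0% and 12.5% in Igf2bp3-/-. Differences between lists were not tested, and their coding lengths were not taken into account. Of the 12 replacement factors, 5 were lower on polysomes in Igf2bp3+/- and 4 in Igf2bp3-/-, and 0 were higher. Chd5 had a log2 loading of -2.28 and -1.57, the proteasome activator Psme4 of -1.35 and -1.08, the demethylase Kdm3a of -0.77 and -0.74 and the reader Phf7 of -0.73 and -0.65 in the respective genotypes, and Rnf8 of -0.83 in Igf2bp3+/-. The largest values, which missed the limit, were 0.36 for Epc1 in Igf2bp3+/- and 0.49 for Tssk6 in Igf2bp3-/-. Of the 12 regulators of stored mRNAs, 5 and 6 were lower and 0 higher: the helicase Ddx4 (-1.37 and -1.39), Eif4g3 (-1.62 and -1.13), the piRNA-binding Piwil1 (-1.30 and -1.05), the poly(A)-binding Pabpc1 (-0.91 and -0.81), Fxr1, which activates stored spermatid mRNAs (-0.52 and -0.77), and Dhx36 in Igf2bp3-/- (-0.74). The largest values in this list, not past the limit, were 0.24 and 0.36 for Paip2.

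Of 10 core histone variants tested, 7 were higher on polysomes in each genotype, beside 18.6% and 12.5% of all genes: H3f3a (1.21 and 0.98) and H3f3b (1.66 and 1.24), which encode H3.3, H2afz (1.31 and 0.84), H2afx (0.78 and 0.81), and the short testis H2A variants H2al1m (1.31 and 1.38), H2afb1 (0.87 and 0.88) and H2afb3 (1.18 and 1.11). Hist1h2aa was lower in Igf2bp3+/-, at -1.01, and at -0.21, not past the limit, in Igf2bp3-/-. Of 5 transcription factors, 2 were higher in Igf2bp3+/- and 1 in Igf2bp3-/-: Tbpl1, a TBP-like factor (0.55 and 0.43), and Crem, which missed the limit in Igf2bp3-/- (0.55 and 0.38). The lowest was Taf7l at -0.31 in each. The list medians in Igf2bp3+/- were -0.31, 0.15, -0.44 and 1.03 for replacement factors, transcription factors, mRNA regulators and core histones, beside -0.10 over all genes, and in Igf2bp3-/- -0.21, 0.22, -0.61 and 0.86, beside -0.04.

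With 3 libraries a group, p-values measure the spread between these libraries. For loading, 1 spread per gene was shared by all 12 libraries, so the SE was equal in both genotypes. Taken by replicate number, the SD of log2 RNC-seq over RNA-seq differed. It was 0.08 in Igf2bp3+/- and 0.84 in Igf2bp3-/- for Prm1, and 0.14 and 0.78 for H1fnt. Hist1h1t, at 0.20 and 0.15, was the sole member with the smaller SD in Igf2bp3-/-. The study calls its replicates biological. By its methods cells were isolated mouse by mouse, and the RNA-seq input and the polysomes came from the same extract, but no label ties a library to its mouse. The same libraries served several of these comparisons, which are therefore not independent.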

How the data were processed

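The authors deposited 1 table of FPKM per gene symbol and library, from reads trimmed with Trim Galore 0.6.6, then handled with HISAT2 (build GRCm38) and StringTie 2.1.7, as the submitters' processing notes name them. FPKM is normalized for length and library size. Its depth is unknown, and use of strand and the annotation release are not given in the sources used here. The labels and the methods both name poly(A) selection, but the labels describe directional libraries and the methods a full-length method. Columns named WT are Igf2bp3+/- by the labels. Of 28668 symbols, 25 turned into dates were left out.

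Here log2(FPKM + 0.1) was fitted with limma 3.58.1 (R 4.3.3) with an intensity trend, two-sided, with Benjamini-Hochberg adjustment over genes with a mean FPKM above 0.1 (for loading and its genotype difference, in each assay) and a limit of 0.05. A fold change on this scale understates low genes. Genotype was tested in the 6 libraries of each assay, and loading and its genotype difference in 1 fit of 12 libraries. The fit was tested on simulated data with 1 spread per gene in all groups, so that test does not cover groups of unequal spread. Positions and coding lengths came from GENCODE M21, promoters from RefSeq (GRCm38.p6, 8 of 8 matched, 2 under newer symbols, H1f6 for Hist1h1t and H1f7 for H1fnt), and copies from BLAST 2.17.0 (a copy shares 95% identity or more across 50% or more of a member). Members and lists were chosen with earlier results of these data known, and so were the rules for genes named. They took from each list every gene past the limit and the largest and smallest value, and for each member the 3 genes of highest correlation. H2al2a and Amh were not analysed here, and H2afb2 did not pass the filter. Alternatives varied the pseudocount, filter, scaling, library weights, left-out library and replicate block.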

Additional observations from a re-analysis of the deposited data

How the results depend on the processing

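The count of members called stayed at 0 for genotype in RNA-seq, RNC-seq and loading under each alternative. For Igf2bp3+/- loading it was 4 to 6 with each library left out and 4 to 5 otherwise, against 5. For Igf2bp3-/- loading it was 3 to 6 with each library left out, 3 with no filter on low FPKM, and 5 to 7 otherwise, against 6. The lowest count, 3, came without Igf2bp3-/- RNA-seq replicate 2 or 3 or RNC-seq replicate 1. The members' share of summed FPKM without CT010467.1 rose to 2.31% in Igf2bp3-/- RNA-seq and 2.88% in Igf2bp3+/- RNC-seq, from 2.13% and 2.36%.

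Signs turned only for values that missed the limit. In RNA-seq, Tnp2 was -0.010 rescaled without CT010467.1, Prm3 -0.17 with quantile normalization, -0.11 rescaled and -0.15 with library weights, and H1fnt -0.10, -0.095 and -0.0043 under the same 3. In RNC-seq, Hils1 was -0.11 centred, -0.15 with quantile normalization and -0.11 rescaled, and Tnp1 was 0.11 with weights. Igf2bp3+/- loading of Tnp2 was -0.025 with quantile normalization. With libraries left out, RNA-seq values ran from -0.11 to 0.039 for Prm2, -0.28 to 0.18 for Prm3 and -0.018 to 0.077 for H1fnt, RNC-seq values from -0.32 to 0.40 for Tnp1, -0.15 to 0.68 for Prm1 and -0.11 to 0.17 for Hils1, and loading differences from -0.17 to 0.55 for Tnp1 and -0.35 to 0.088 for Hist1h1t. The causes were not tested.

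The study's methods take RNA-seq input and polysomes from 1 extract, but no source says that equal numbers mark it. Between the assays of 1 genotype, the deviations of same-numbered libraries had r of -0.10 to 0.21. Between the genotypes of 1 assay, r was -0.08 to 0.24. Same-numbered libraries were not taken as pairs. For loading, the replicate block joined the assays of 1 number within a genotype. With the replicate block, 0, 0 and 0 members were called for genotype in RNA-seq, RNC-seq and loading, 4 for Igf2bp3+/- loading (Prm2 lost, adjusted p 0.0707, and Prm1 still missing the limit, 0.0873) and 7 for Igf2bp3-/- (with Prm3, 0.0325).

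Over all genes, called genotype differences in RNA-seq numbered 52, 4 with the replicate block, 31 with no filter and 84 with weights, and in RNC-seq 22, 2 with no filter, 14 rescaled, 12 with quantile normalization, 13 centred and 48 in a fit of all 12 libraries. Depth sets no known limit here, since the table gives no counts.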
